A study of Mus musculus with 2 samples.

Results

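The cells described here are 190 matrix-rich pigment cells from mouse eyes taken 7 days after sodium iodate (NaIO3), among 3944 cells kept from the NaIO3 library and 8331 kept from both libraries of the study. They were chosen by measured values: a sum of at least 20 unique molecular identifiers (UMIs) per 10000 over 6 extracellular matrix genes (Fn1, Col1a1, Col1a2, Cthrc1, Fbln2 and Aebp1), under 5 for Dcn plus Lum, under 3 for Rgs5 plus Myh11, and at least 1 UMI of the pigment genes Mlana, Dct, Pmel or Tyrp1. The limit on Dcn and Lum set aside fibroblast-type cells. The limit on Rgs5 and Myh11, meant for the mural cells of vessels, removed no further cell. The levels of these genes describe the choice and are not findings.

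The study profiled the layer of pigmented epithelium behind the photoreceptors, the retinal pigment epithelium (RPE), together with the choroid beneath it, by droplet single-cell RNA sequencing. Wild-type C57BL/6J mice received NaIO3, an oxidant toxic to the RPE, at 20 mg/kg into a vein, or the same volume of phosphate-buffered saline (PBS), and were examined after 7 days. Each group pooled the eyes of 6 mice into 1 library. The eyes were treated with dispase, the front of the eye and the neural retina were taken off, and brown hexagonal cells were picked under a microscope. No other allele or agent is named, and the labels give neither age nor sex. With 1 library per group there is no replicate and no test: every interval given in parentheses is a 95% interval that covers counting error only, and a share of cells also reflects which cells were picked by hand.

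An RPE cell is a pigmented epithelial cell that recycles retinal, takes up shed outer segments, moves ions and nutrients between blood and retina, and rests on a basement membrane. After injury RPE cells can lose these epithelial functions, spread, and lay down collagen and fibronectin, a change studied in retinal scarring. Cdkn2a encodes p16Ink4a, an inhibitor of the kinases that drive G1, and p19Arf, which stabilises p53. Cdkn2b encodes p15Ink4b, a neighbouring inhibitor induced by TGF-beta, and both genes are widely used markers of cellular senescence.

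Cdkn2a and Cdkn2b lie side by side on chromosome 4 of the GRCm38 build (Cdkn2a at 89274471 to 89294653, Cdkn2b at 89306299 to 89311039, GENCODE M21, both on the reverse strand). The joints of their first and second exons are printed because the counts are per gene, and the joint is where the 2 Cdkn2a messages part. Each run holds the last 30 bases of exon 1 in lower case and the first 30 bases of exon 2 in capitals, 5′ to 3′.
Cdkn2a-201 (p16Ink4a; exon 1 at 89281986 to 89282192): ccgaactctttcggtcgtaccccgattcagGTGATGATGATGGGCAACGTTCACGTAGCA
Cdkn2a-202 (p19Arf; exon 1 at 89294334 to 89294653): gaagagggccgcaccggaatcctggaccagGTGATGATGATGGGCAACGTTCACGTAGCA
Cdkn2b-201 (p15Ink4b): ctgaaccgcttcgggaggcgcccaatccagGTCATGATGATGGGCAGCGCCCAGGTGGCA
The Cdkn2a messages share exon 2 (89276645 to 89276985) and a run of 578 bases, so a Cdkn2a count cannot be assigned to p16Ink4a or to p19Arf. The longest run that either shares with Cdkn2b-201 is 23 bases.

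The libraries were of similar depth, with 51055592 UMIs over 4618 barcodes for PBS and 51168520 UMIs over 4058 barcodes for NaIO3. A floor of 500 genes and a ceiling of 25% mitochondrial counts removed 231 and 114 barcodes. The matrix-rich cells were 4.82% (4.17 to 5.53) of the kept NaIO3 cells, and 1 of 4387 kept PBS cells met the same rule, 0.0228% (0.000577 to 0.127). In the NaIO3 library 214 cells reached the matrix sum. Of these, 196 passed the limit on Dcn plus Lum, the same 196 cells remained after the limit on Rgs5 plus Myh11, and 190 held a pigment UMI. In the PBS library 111 cells reached the matrix sum and 2 of them passed the limit on Dcn plus Lum. The members just inside the matrix limit summed to 21.1, 21.3 and 21.7 per 10000, and the nearest cells outside it to 19.7, 19.3 and 19.3. No barcode of a member was among the 24 barcodes that occur in both libraries.

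The matrix-rich cells were large in RNA content. They held a median of 25684.5 UMIs (lowest 4233, highest 76174) and 5306.5 genes, against 9720 UMIs and 2892 genes in the 2269 RPE cells of the same library (Rpe65, Rlbp1, Rgr, Lrat and Rdh5 summing to at least 100 per 10000). Their median mitochondrial share was 5.42%, against 11.6% in RPE cells. Doublet scoring marked 6 of the 190, a share of 3.16%, against 3.36% of the other kept cells. Only 1 of the 190 also met the RPE criterion. When both libraries were clustered together, 188 of the 190 fell in 1 cluster of 298 cells, 297 from NaIO3 and 1 from PBS, which no marker list named. The other 109 NaIO3 cells of that cluster, of which 102 lay below the matrix limit and 35 met the RPE criterion, are used below as the nearest neighbours of the matrix-rich cells.

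**Figure D1:**
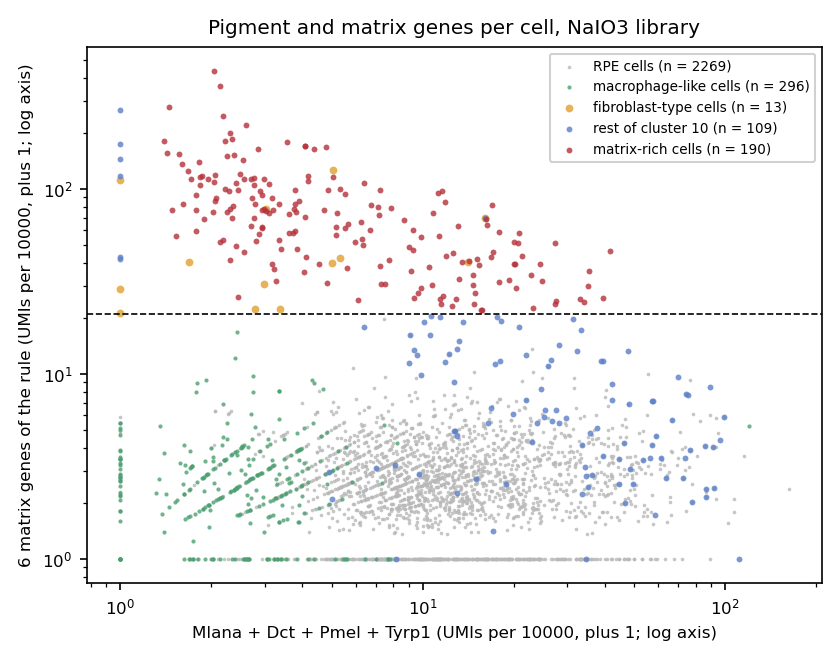
Each point is a cell of the NaIO3 library. The horizontal axis is the sum of Mlana, Dct, Pmel and Tyrp1 and the vertical axis the sum of the 6 matrix genes, both in UMIs per 10000 plus 1 on log axes, and the dashed line marks the matrix limit of 20. The 190 matrix-rich cells (red) run from the pigment sums of RPE cells (grey) down to those of macrophage-like cells (green), and the cells with the highest matrix sums stand toward the low end of the pigment axis.

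By pigment genes alone, the label of pigment cell could be checked for some of the members only. RNA freed from broken cells enters every droplet, and 88.2% of the 296 macrophage-like cells and 82.2% of the 726 surface epithelium-like cells of the library also held a pigment UMI. The pigment sum of the matrix-rich cells had a median of 3.18 per 10000 (lowest 0.391, highest 40.6), and 10 of them were admitted with 1 pigment UMI. Set against the 95th percentile of macrophage-like cells, 4.42 per 10000, 83 matrix-rich cells stood above that range and 107 within it. These are called the pigment-high and pigment-low cells here; they are ranges cut from a continuous value, not cell types. For the 107, the pigment UMIs do not tell them from cells that carry free RNA.

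RPE and eye-field transcription factors, which the rule did not use, stood above the macrophage-like level in both ranges. Otx2, a homeobox factor required for RPE fate, stood at 197 CPM (185 to 210) in the matrix-rich cells, where CPM is counts per 1000000 UMIs summed over a set of cells, at 278 in the pigment-high and 145 in the pigment-low cells, against 323 in RPE cells and 35.5 in macrophage-like cells. Mitf, the master regulator of pigment cells, stood at 143 CPM in pigment-high and 69.1 CPM in pigment-low cells, against 70.5 in RPE and 20.6 in macrophage-like cells. Lhx2, an eye-field factor, stood at 119.6 and 61.6 CPM, against 74.8 in RPE and 7.83 in macrophage-like cells. Krt18, a keratin of simple epithelia, stood at 1552 and 886 CPM, against 1117 in RPE and 170 in macrophage-like cells. After every cell was thinned to 4000 UMIs, Otx2 was seen in 61.4% of pigment-high, 40.2% of pigment-low and 71.0% of RPE cells, and in 10.1% of macrophage-like cells (unthinned 98.8%, 88.8%, 92.7% and 36.1%). The summed level of 8 RPE markers was 6915 CPM in the matrix-rich cells, 81669 in RPE cells and 6630 in macrophage-like cells. That list holds Rpe65, Rlbp1, Rgr, Lrat and Rdh5, which chose the RPE cells, so its gap to RPE cells is a description only. None of the 8 was above 2 times its macrophage-like level in the matrix-rich cells as a whole, and 2 were in the pigment-high cells.

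Markers of other classes were examined in full. Of 9 fibroblast markers the matrix-rich cells had no count of Dpt or Col14a1 and summed to 28.4 CPM, against 37.4 CPM in RPE cells and 32092 CPM in the 85 fibroblast-type cells of the PBS library (matrix sum of at least 20 and Dcn plus Lum of at least 5); Dcn and Lum were limited by the rule. Pdgfra, a receptor typical of fibroblasts, stood at 1.18 CPM (0.435 to 2.58) and Col3a1, a fibrillar collagen of stroma, at 4.15 CPM (2.57 to 6.34), against 90.2 and 395 CPM in those fibroblast-type cells. Of 8 melanocyte markers Pax3 was at 0 and the sum was 145 CPM, against 253 in RPE cells; Sox10 was at 6.51 CPM and Kit at 2.76 CPM, both under their RPE-cell levels of 50.1 and 12.8. Of 9 mural markers Abcc9 was at 0 and the sum was 1624 CPM, of which Acta2 alone gave 1524. The 46 mural-type PBS cells (Rgs5 plus Myh11 of at least 3 and Dcn plus Lum under 5) summed to 13797 CPM. The mural-type cells were chosen by Rgs5 and Myh11, so part of that gap was set by choice. The rule's own limit on these genes removed no cell that had passed the limit on Dcn plus Lum. Macrophage markers summed to 1796 CPM, close to the 1749 CPM in RPE cells and below the 39596 CPM in macrophage-like cells, with single matrix-rich cells between 5.19 and 388 per 10000. A list for ciliary or iris epithelium, the pigmented layers in front of the retina, summed to 379 CPM against 31.3 in RPE cells and 441 in surface epithelium-like cells, through Tgfb2 at 236 CPM and Pax6 at 133 CPM, while Zic1 was at 0 and Otx1 at 3.75 CPM. Whether some of the matrix-rich cells came from those layers was not tested.

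The other lists stood as follows. Corneal endothelium markers summed to 1664 CPM in the matrix-rich cells and 1847 in RPE cells, Muller glia markers to 2567 and 4201, scleral or corneal stroma markers to 4947 and 41339.7, and lens markers to 555 and 600.3. Schwann cell markers summed to 292 and 227 CPM, endothelial markers to 34.5 and 19.6, dendritic markers to 65.9 and 66.9, and T or NK cell markers to 0.790 and 1.63. Surface epithelium markers summed to 1709 and 1900.3 CPM, rod markers to 267 and 346, cone markers to 33.6 and 49.0, and red blood cell markers to 29.2 and 31.2.

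**Figure D2:**
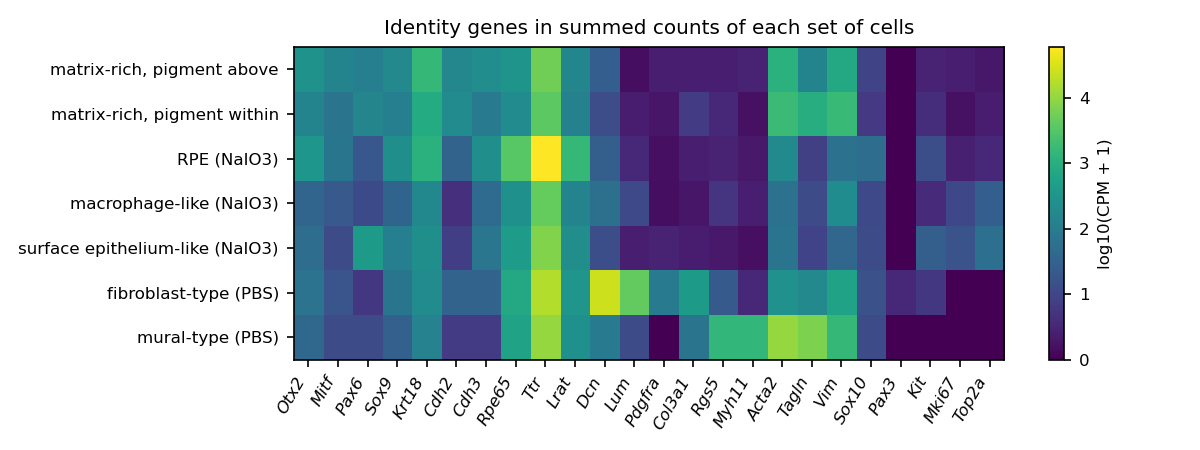
The heat map gives log10(CPM + 1) of 24 identity genes (columns) in 7 sets of cells (rows), from summed counts. Pigment-high and pigment-low matrix-rich cells share Otx2, Mitf, Sox9 and Krt18 with RPE cells, hold little Dcn, Lum, Pdgfra, Rgs5 or Myh11, and differ from RPE cells in Rpe65, Ttr, Lrat, Pax6, Cdh2, Acta2, Tagln and Vim. Rpe65 and Lrat helped to choose the RPE cells, and Dcn, Lum, Rgs5 and Myh11 were limited by the rule.

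Cdkn2a was the gene after which the cells were labelled, and its counts were concentrated in them. The matrix-rich cells held 9.90% of all UMIs of the NaIO3 library and 2790 of its 3372 Cdkn2a UMIs, 82.7%. Per cell the count ran from 0 to 82 with a median of 9. The summed level was 551 CPM (530.5 to 572), against 9.91 CPM in RPE cells, a ratio of 55.5 (49.1 to 63.1). Macrophage-like cells stood at 17.9 CPM and surface epithelium-like cells at 11.8 CPM, so the RPE level lay at or below that of cells in which free RNA is the background. The PBS library held 2 Cdkn2a UMIs in all and none in its 3627 RPE cells, a depth at which 3 counts would be 0.0655 CPM. Cdkn2b, Timp1 and Cdkn1a stood at 0.611, 0.415 and 5.74 CPM in PBS RPE cells and at 7.70, 11.5 and 47.9 CPM in NaIO3 RPE cells (1 library each). After thinning, Timp1 was seen in 4.72% of NaIO3 RPE cells, 4.39% of macrophage-like and 3.86% of surface epithelium-like cells. The same shares were 2.73%, 1.35% and 25.5% for Cdkn2b and 16.2%, 38.2% and 72.2% for Cdkn1a. The part of free RNA in these NaIO3 RPE levels was not tested.

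Cdkn2a was seen in 87.4% (81.8 to 91.7) of the matrix-rich cells and in 68.4% after thinning. The same shares were 11.5% and 3.92% in RPE cells, 19.3% and 6.42% in macrophage-like cells, and 13.1% and 4.41% in surface epithelium-like cells. The 109 other cells of the cluster, with a median of 21348 UMIs, had 32.1% and 13.8%. Depth therefore moved the shares of every set, and after thinning the matrix-rich cells stood apart from all 4.

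Cdkn2b stood at 416 CPM (399 to 434) against 7.70 CPM in RPE cells, a ratio of 53.9 (46.9 to 62.5), with 0, 8 and 65 UMIs in the lowest, median and highest cell. Its share of cells was 91.1% in the matrix-rich cells and 8.81% in RPE cells, and 67.9% and 2.73% after thinning. Unlike Cdkn2a it was also present in surface epithelium-like cells, at 85.1 CPM and in 49.7% of cells. Both genes were found in 158 of the 190 matrix-rich cells and neither in 9.

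Timp1, an inhibitor of matrix metalloproteinases on chromosome X (20870166 to 20874735), was the other marker that the rule did not use. It stood at 405 CPM (387 to 423) against 11.5 CPM in RPE cells, a ratio of 35.1 (31.2 to 39.7), and was seen in 91.6% of matrix-rich cells. The other 3 marker genes entered the rule and are given as a description only: Fbln2, an elastic-fibre glycoprotein, at 2179 CPM against 49.3, Cthrc1, a secreted protein of activated stroma, at 1316 against 31.5, and Fn1, fibronectin, at 1224 against 23.2.

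**Figure D3:**
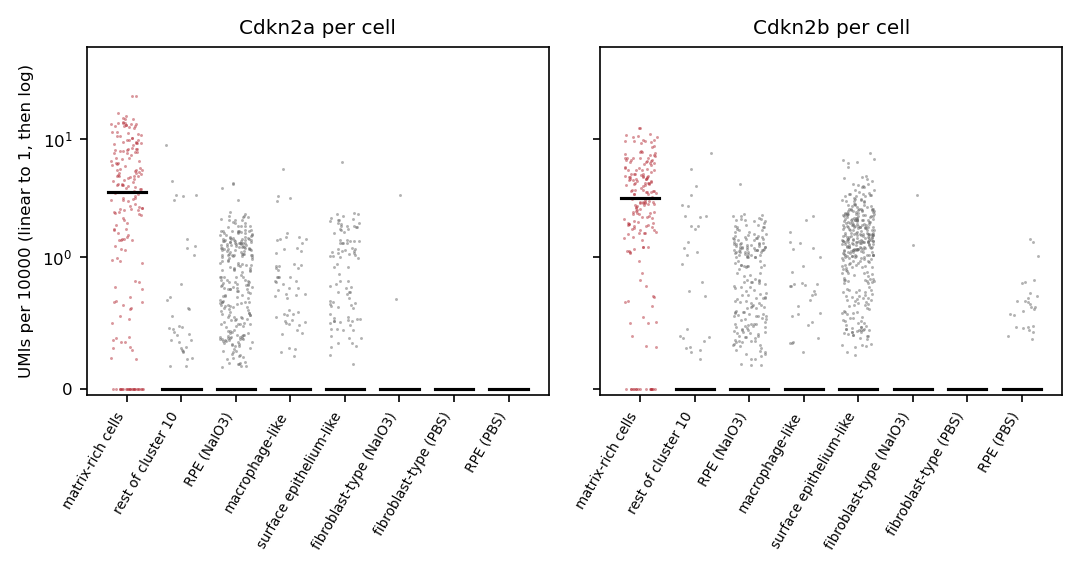
Each point is 1 cell, with Cdkn2a (left) and Cdkn2b (right) in UMIs per 10000 on an axis that is linear up to 1 and logarithmic above, and the bar is the median of the set. Cells at 0 in the other sets lie under the bar. The median lies above 0 for the matrix-rich cells alone among the 8 sets, and the surface epithelium-like cells hold Cdkn2b more often than Cdkn2a.

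The level of Cdkn2a followed the matrix sum across and beyond the limit, which is a description since the sum chose the cells. In the 142 NaIO3 cells with a matrix sum of 5 to 10 it was 24.2 CPM, and in the 34 cells of 10 to 20 it was 32.2 CPM. Inside the rule it was 139 CPM in 49 cells of 20 to 40, 606 CPM in 73 cells of 40 to 80, and 749 CPM in 68 cells of 80 or more. Cdkn2b gave 22.7, 79.6, 210.4, 429 and 533 CPM over the same ranges. The share of cells with a Cdkn2a UMI was 18.3%, 38.2%, 73.5%, 90.4% and 94.1%, while the median pigment sum was 8.72, 11.6, 12.5, 3.73 and 1.59 per 10000. Of the 34 cells of 10 to 20, 28 belonged to the same cluster as the matrix-rich cells.

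Across the genome, 12021 genes had at least 50 counts in the matrix-rich and RPE cells together. Of these, 20.3% (2439) were more than 2-fold higher in the matrix-rich cells and 12.5% (1500) more than 2-fold lower, and 7.89% (948) and 4.32% (519) passed 4-fold. Under TMM scaling, which lowers every log2 ratio by 0.34, 735 genes were past 4-fold higher and 731 lower, so that 50.1% of them were higher, against 64.6% by CPM. That shift also turned the sign of 6 of 31 list medians given below, those of growth arrest, RPE and eye-field factors, outer segment uptake, melanin, interferon response and lipid transport. The median log2 ratio of all genes was 0.20. The 2-fold shares above, 20.3% and 12.5%, are the background for the count of each list set against RPE cells below. RPE cells were chosen by visual-cycle genes, so genes that go with them stand high there by choice. The 15 highest genes by the lower bound of their ratio mixed matrix, contractile, developmental and growth-arrest genes: Tagln, Pappa, Sox11, Adamtsl1, Cdkn2a, Wisp1, Cdkn2b, Prkg2, Ass1, Epha3, Postn, Kif26b, Scn7a, Hmga2 and Stk26.

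Tagln, a smooth-muscle actin-binding protein, stood first, at 625 CPM (603 to 647) against 7.16 in RPE cells, a ratio of 87.1 (75.6 to 101). Postn, periostin, a matricellular protein of healing tissue, stood at 307 CPM against 6.15, a ratio of 49.9 (42.6 to 58.9). Wisp1, a CCN-family matricellular protein, stood at 159 CPM against 2.53, a ratio of 62.3 (49.1 to 81.2). Pappa, a protease that frees insulin-like growth factor from its binding proteins, had 120 counts against 3, a ratio of 188 (72.9 to 1074). In RPE cells none of these 4 genes exceeded 7.16 CPM.

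Sox11, a transcription factor of embryonic tissue, had 173 counts against 9, a ratio of 99.7 (54.0 to 233). Hmga2, a chromatin protein of fetal and of senescent cells, had 241 counts against 20, a ratio of 64.3 (41.6 to 110). Both were at 0.153 and 0.0218 CPM in PBS RPE cells. Scn7a, which encodes a sodium-channel-family protein, stood at 192 CPM against 3.73, a ratio of 51.3 (42.0 to 63.7), and Ass1, an enzyme of arginine synthesis, at 279 CPM against 5.32, a ratio of 52.4 (44.3 to 62.7). The ephrin receptor gene Epha3, the kinesin gene Kif26b and the kinase genes Prkg2 and Stk26 had ratios of 81.3, 58.8, 87.0 and 58.9, and Adamtsl1, an ADAMTS-like matrix protein gene, 77.1.

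The 15 lowest genes, against cells that were themselves chosen by RPE genes, were Ttr, Serpine3, Sostdc1, Kcnj13, Enpp2, Rd3l, Car10, Dlgap1, Kcna2, Pon1, Cldn2, Itgb8, Thsd7a, Slc6a20a and Rrh. Ttr, transthyretin, a carrier of retinol-binding protein and thyroxine, stood at 4422 CPM against 60208 in RPE cells, a ratio of 0.0734 (0.0725 to 0.0744). Kcnj13, the apical potassium channel of the RPE, stood at 53.1 CPM against 686, a ratio of 0.0776 (0.0684 to 0.0874). Enpp2, autotaxin, stood at 222 CPM against 2688, and Itgb8, an integrin subunit that activates latent TGF-beta, at 166 against 1628. In macrophage-like cells the same 4 genes stood at 4532, 41.8, 222 and 149 CPM, so the matrix-rich cells were at or near the level that free RNA gives. A decrease below that level cannot be measured here.

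Growth arrest was described by 12 genes, of which 4 were past 2-fold higher and 2 past 2-fold lower, with a median log2 ratio of 0.31 (-0.03 under TMM scaling). Over all genes 20.3% were past 2-fold higher and 12.5% lower. Cdkn2a and Cdkn2b, 2 of the 4 higher genes, were among the markers by which the cells were labelled. With 12 genes these counts are not set apart from the shares over all genes. Cdkn2a and Cdkn2b led, followed by Cdkn1a, the p53 target p21, at 992 CPM against 47.9, a ratio of 20.7 (19.5 to 22.0), and Trp53 itself at 72.6 CPM against 22.1, a ratio of 3.28 (2.88 to 3.74). Cdkn1a was also high in surface epithelium-like cells, at 671 CPM. Cdkn1b and Cdkn1c, which encode p27 and p57, were lower, with ratios of 0.443 (0.359 to 0.537) and 0.317 (0.160 to 0.533). Lmnb1, the lamin whose loss is used as a senescence marker, had a ratio of 0.932 (0.655 to 1.28), and Glb1, the gene of senescence-associated beta-galactosidase, 1.25 (1.09 to 1.43).

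Targets of p53 were higher as a list: 17 of 23 were past 2-fold higher and none past 2-fold lower, with a median of 1.84. Eda2r, a death-domain receptor, stood at 33.0 CPM against 0.796 (ratio 40.6, 26.5 to 67.9), Pmaip1, the BH3-only protein Noxa, at 50.3 against 1.77 (ratio 28.2, 20.9 to 39.4), and Phlda3, an Akt inhibitor, at 692 against 32.7 (ratio 21.1, 19.7 to 22.8). Sesn1 and Rrm2b were at the other end, with ratios of 0.665 and 0.677.

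The cell-division list gave 3 of 17 past 2-fold higher and 3 past 2-fold lower, with a median of -0.74. These counts lay close to the shares over all genes, 20.3% higher and 12.5% lower. Genes of the division phase were near 0: Mki67 at 0.987 CPM (5 counts), Top2a at 1.18 (6 counts) and Ccnb1 at 1.18 (6 counts), against 1.66, 2.35 and 2.39 CPM in RPE cells. In the 109 other cells of the cluster the same genes stood at 22.3, 39.4 and 28.7 CPM. The 3 higher genes were Ccnd2, a cyclin of G1, at 885 CPM against 55.7 (ratio 15.9, 15.004 to 16.9), Tyms, thymidylate synthase, with a ratio of 5.46 (4.37 to 6.81), and Ccne1, cyclin E1, with 3.18 (1.99 to 4.94). Ccnd1, the D-type cyclin of RPE cells, was at 98.3 CPM against 318 (ratio 0.310, 0.282 to 0.339).

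Of 36 secreted factors often listed for senescent cells, 27 had enough counts. Among these, 20 were past 2-fold higher and 3 past 2-fold lower, with a median of 2.37. The highest were Igfbp3, a binding protein of insulin-like growth factors, at 51.9 CPM against 1.16 (ratio 44.3, 31.0 to 66.9), Timp1, the membrane protease Mmp14 at 194 against 5.71 (ratio 33.9, 28.7 to 40.4) and the gelatinase Mmp9 at 91.8 against 2.75 (ratio 33.2, 26.2 to 43.1). Inflammatory members of that list were low: Cxcl1 had 45 counts (8.88 CPM) and Ccl2 had 48 (9.48 CPM), and Ccl2 stood at 46.7 CPM in macrophage-like cells. Vegfa, the angiogenic factor that RPE cells secrete, was the lowest, at 32.0 CPM against 191 (ratio 0.168, 0.142 to 0.195), followed by Igfbp6 and Igfbp5 with ratios of 0.244 and 0.410.

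Collagens beyond the rule's Col1a1 and Col1a2 were among the lists with the highest medians. Of 11 measured, 9 were past 2-fold higher and 1 past 2-fold lower, with a median of 4.37. Col11a1, which sets fibril diameter, stood at 220.5 CPM against 5.14 (ratio 42.8, 36.0 to 51.5), Col6a1, of beaded filaments, at 46.6 against 1.09 (ratio 42.3, 29.3 to 65.1) and Col5a1, which nucleates collagen I fibrils, at 107 against 2.78 (ratio 38.3, 30.3 to 49.5). Col8a2, a collagen of hexagonal networks, was lower, at 101 CPM against 847 (ratio 0.120, 0.109 to 0.131), close to the 81.2 CPM of macrophage-like cells.

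Basement membrane genes split by chain. Of 17 measured, 11 were past 2-fold higher and 2 past 2-fold lower, with a median of 2.29. Lama4, a laminin chain of vessels and mesenchyme, had 45 counts against 13 (ratio 18.4, 10.0 to 38.2), Nid1, which links laminin to collagen IV, a ratio of 17.0 (11.6 to 26.1), and Sparc, a collagen-binding glycoprotein, 10.5 (10.3 to 10.8), at 4004 CPM against 380.3. The collagen IV chains Col4a1 and Col4a2 had ratios of 9.29 and 4.88, whereas Col4a3 and Col4a4, the pair of mature basement membranes, had 0.594 and 0.550. Smoc1 and Nid2 were lowest, with 0.170 and 0.332.

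Matrix glycoproteins outside the rule were past 2-fold higher for 23 of 28 and lower for 1, with a median of 2.63. Besides Wisp1 and Postn, the proteoglycan Vcan stood at 22.9 CPM against 0.687 (ratio 32.6, 20.4 to 57.3) and the fibrillin Fbn2 at 10.3 against 0.326 (ratio 30.2, 15.4 to 72.8). The exception past 2-fold lower was Vtn, vitronectin, with 0.244. Crosslinking and folding enzymes were past 2-fold higher for 14 of 18 and lower for 1 (median 2.34), led by Lox, lysyl oxidase, at 248 CPM against 5.14 (ratio 48.1, 40.5 to 57.8), and Plod2, a lysyl hydroxylase, at 56.1 against 1.56 (ratio 35.7, 26.1 to 50.9). Of 25 proteases and inhibitors, 21 had enough counts, with 17 past 2-fold higher and 1 lower (median 4.24). The aggrecanase Adamts4 (61 counts against 7, ratio 44.8, 21.7 to 123) and Adam12 (60 against 8, ratio 38.8, 19.5 to 99.1) were highest. Both passed the count filter through the matrix-rich cells. At the other end was Timp3, the inhibitor stored in the membrane under the RPE, at 933 CPM against 4785 (ratio 0.195, 0.189 to 0.201).

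TGF-beta and BMP genes lay on both sides. Of 31 measured, 19 were past 2-fold higher and 6 lower, with a median of 1.69. Grem1, a secreted BMP antagonist, had 116 counts against 8 (ratio 74.8, 38.9 to 188), the ligand Tgfb2 stood at 236 CPM against 7.88 (ratio 29.9, 25.9 to 34.8), Ltbp2, of the latent TGF-beta binding family, at 92.8 against 3.22 (ratio 28.7, 22.9 to 36.6), and Pmepa1, a TGF-beta-induced feedback inhibitor, at 867 against 42.4 (ratio 20.5, 19.2 to 21.9). The lowest were Nog, another BMP antagonist, with 0.0949 (0.0607 to 0.137), the ligands Bmp4 and Bmp7 with 0.175 and 0.199, and Tgfbr3 with 0.214. Tgfbr2, the ligand-binding receptor, had 4.24 (3.58 to 5.01), and the signal carriers Smad2, Smad3 and Smad4 had 1.42, 0.848 and 1.37, all within 2-fold.

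Of 13 transcription factors of epithelial-mesenchymal transition, 9 had enough counts. Of these, 7 were past 2-fold higher and none lower, with a median of 2.98. Members low in both sets are not counted, and Runx2 and Snai1 fell short of the count filter in RPE cells alone. Runx2 had 99 counts against 16 (ratio 32.9, 19.8 to 61.4), Runx1 stood at 177 CPM against 6.402 (ratio 27.6, 23.5 to 32.7), Prrx1 at 17.4 against 0.651 (ratio 26.1, 15.9 to 47.1) and Snai1 at 8.29 against 0.326 (42 counts against 9, ratio 24.4, 12.2 to 59.5). Foxc1 and Zeb2 were the lowest, with 1.26 and 1.73.

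Cytoskeletal and contractile genes were past 2-fold higher for 24 of 25, with none lower and a median of 2.77. After Tagln came the intermediate filament Vim at 1297 CPM against 58.5 (ratio 22.2, 20.99 to 23.4), the myosin light chain Myl9 at 123 against 7.16 (ratio 17.1, 14.6 to 20.2) and Cnn1, calponin, at 12.2 against 0.723 (ratio 16.6, 10.1 to 29.6). Acta2, smooth-muscle actin, stood at 1524 CPM against 188 (ratio 8.09, 7.81 to 8.39). Targets of YAP, a mechanosensitive coactivator, were past 2-fold higher for 8 of 14 and lower for 3 (median 2.05), from Ankrd1 with 54 counts against 1 (ratio 198, 50.7 to 11854) and Ctgf with 12.8 (11.1 to 14.97) to Crim1 and F3 with 0.191 and 0.197. Integrins and adhesion genes were past 2-fold higher for 11 of 20 and lower for 2 (median 1.48). They ran from Thy1 at 64.5 CPM against 2.97 (ratio 21.7, 17.0 to 28.1) and Vcam1 at 92.0 against 4.48 (ratio 20.5, 16.8 to 25.2) to Sdc4 and Itgb8 with 0.235 and 0.102.

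Epithelial genes were kept in part. Of 19 junction and keratin genes, 3 were past 2-fold higher and 6 lower, with a median of -0.68. The cadherins Cdh11 and Cdh2, found in mesenchyme, had ratios of 7.85 (5.62 to 11.1) and 5.68 (5.18 to 6.23), and Cdh3, the P-cadherin of RPE cells, 0.579 (0.535 to 0.625). The tight-junction genes Cldn1 and Cgn had 0.255 and 0.323, and the polarity gene Crb3 0.195. Krt18 had 1.03 (0.999 to 1.06) and its partner Krt8 0.576 (0.541 to 0.613).

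Genes of RPE function were lower as groups. Of 11 visual-cycle and retinoid genes outside the rule, 2 were past 2-fold higher and 7 lower (median -1.70). Besides Ttr and Rrh, Rdh10, which makes retinal, stood at 219 CPM against 1824 (ratio 0.120, 0.113 to 0.127). The higher pair was Crabp2, which carries retinoic acid to its receptor, at 52.7 CPM against 1.81 (ratio 28.9, 21.5 to 40.3), and Aldh1a1, which makes retinoic acid, with 19 counts against 40 (ratio 2.63, 1.42 to 4.58). Channels and transporters were past 2-fold lower for 16 of 19 and higher for none (median -2.34). Aqp1, a water channel, and Atp1b1 were among those within 2-fold, with 1.03 and 0.922. Metallothioneins, which bind zinc, were past 2-fold lower for 3 of 3 (median -2.31), with Mt1 at 4046 CPM against 18061.

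Of 22 RPE and eye-field transcription factors, 12 had enough counts. They were past 2-fold higher for 2 of 12 and lower for none, with a median of 0.03 (-0.31 under TMM scaling). Over all genes 20.3% were past 2-fold higher and 12.5% lower, and with 12 genes these counts are not set apart from those shares. Sox11 and Pax6, the eye-field factor that RPE cells shut down as they mature, were the higher pair. Pax6 stood at 133 CPM (123 to 143) against 18.8, a ratio of 7.07 (6.30 to 7.95), and was also at 394 CPM in surface epithelium-like cells. Mitf had a ratio of 1.39 (1.26 to 1.54), Otx2 0.612 (0.572 to 0.653), Sox9 0.582 (0.538 to 0.629) and Six3 0.524 (0.478 to 0.572). Each of these 4 stood above 2 times its macrophage-like level.

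Melanin and melanosome genes outside the rule were past 2-fold higher for 5 of 11 and lower for 3 (median 0.31). Rab38, which sorts cargo to melanosomes, stood at 157 CPM against 12.9 (ratio 12.1, 10.7 to 13.8), and Cited1 had 36 counts against 23 (ratio 8.48, 4.93 to 15.1). Oca2, Gpr143 and Slc45a2 had 0.0916, 0.164 and 0.193, at 7.70, 6.32 and 3.75 CPM against 9.05, 3.43 and 3.67 CPM in macrophage-like cells. Tyr, tyrosinase, the first enzyme of melanin synthesis, stood at 121 CPM against 160.4 (ratio 0.754, 0.691 to 0.820), against 18.6 in macrophage-like cells. Outer segment uptake genes were past 2-fold higher for 6 of 15 and lower for 3 (median 0.17), with the bridging proteins Pros1 and Mfge8 at 17.6 (14.5 to 21.6) and 11.6 (10.9 to 12.3) and the receptor Mertk at 0.434 (0.340 to 0.543).

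Secreted RPE factors were past 2-fold higher for 8 of 18 and lower for 6 (median 0.54), led by Serpinf1, the anti-angiogenic factor PEDF, at 271 CPM against 10.8 (ratio 25.1, 22.2 to 28.6). Wnt pathway genes were past 2-fold higher for 5 of 17 and lower for 2 (median 0.50), led by the ligand Wnt11 (52 counts against 5, ratio 52.1, 22.8 to 182) and the factor Lef1 (66 against 10, ratio 34.6, 18.4 to 78.6). Axin2, a common target of beta-catenin, had 0.557 (0.388 to 0.764). Over all genes 20.3% were past 2-fold higher and 12.5% lower.

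Stress and immune lists were mixed, beside 20.3% of all genes past 2-fold higher and 12.5% lower. MHC class I genes were past 2-fold higher for 8 of 11 (median 1.47), although none was above 2 times its macrophage-like level, and H2-T23 had the highest ratio, 4.29 (3.53 to 5.21). Immediate early genes, which dissociation can induce, were past 2-fold higher for 11 of 17 (median 1.205), led by Klf6 and Jund with 5.70 and 4.85, and 1 of them was above 2 times its macrophage-like level. Interferon-response genes were past 2-fold higher for 6 of 20 and lower for 3 (median 0.26). NRF2 targets were past 2-fold higher for 5 of 18 and lower for 1 (median 0.38), with Gsta3, a glutathione transferase, at 11.3 (10.3 to 12.4) and Nqo1 at 0.176 (0.151 to 0.203). ER chaperones and ATF4 targets gave 4 of 22 higher and 2 lower (median 0.52), lysosome genes 7 of 19 higher and 1 lower (median 0.79), lipid transport genes 4 of 16 higher and 5 lower (median 0.03), and complement genes 2 of 9 higher and 2 lower (median -0.10). Cd55, a complement regulator, had 90 counts against 15 (ratio 31.9, 18.8 to 60.9).

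**Figure D4:**
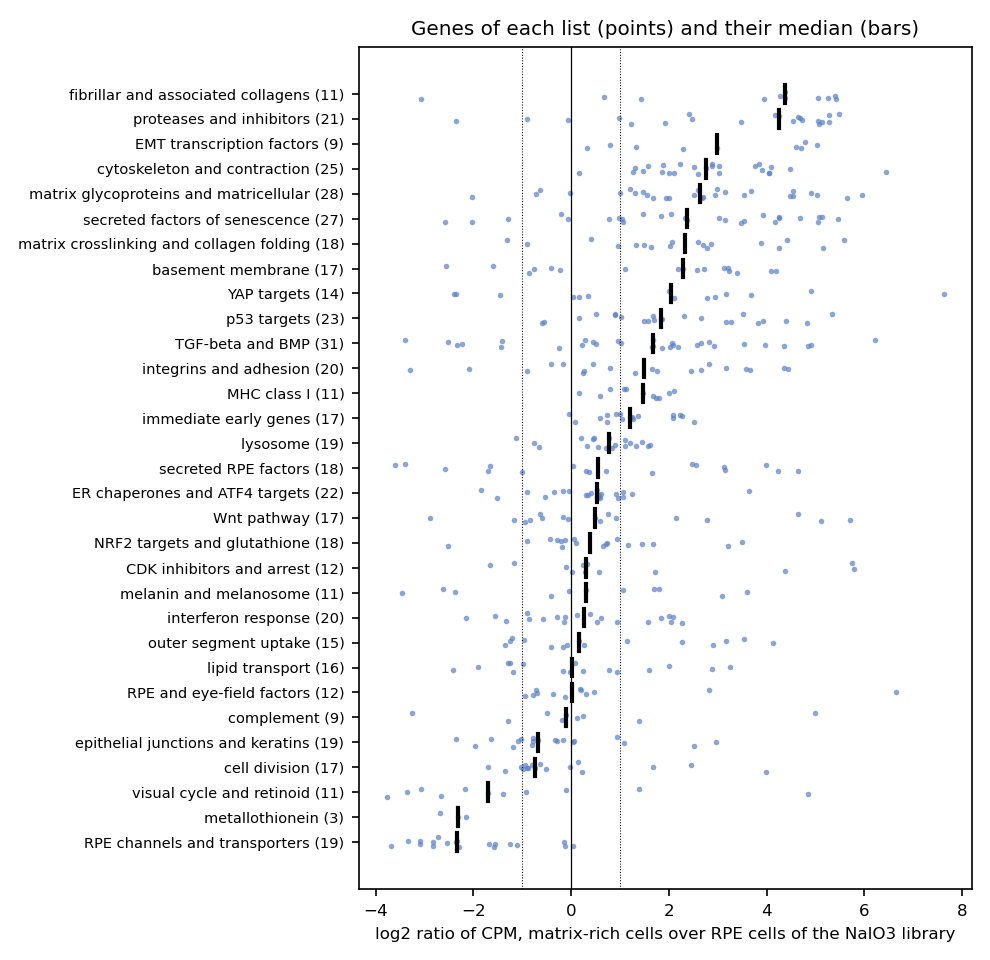
Each point is a gene of a list (number measured in brackets) with its log2 ratio of CPM in matrix-rich over RPE cells of the NaIO3 library, bars are list medians, and dotted lines mark 2-fold. Collagens (median 4.37) and proteases (4.24) stand at the top, transcription factors of the RPE and eye field sit near 0 (0.03, or -0.31 under TMM scaling), and channels and transporters (-2.34) stand at the bottom.

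Depth and mitochondrial share differed between the sets compared, as given above. Against the 363 RPE cells with at least 18378 UMIs, the lower quartile of the matrix-rich cells, the log2 ratio of Cdkn2a was 6.15, compared with 5.79 against all RPE cells. Among cells of at most 10% mitochondrial counts it was 6.08. The part of depth and mitochondrial share in the other ratios was not tested beyond these settings.

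The matrix-rich cells varied along the pigment sum. They were divided into 5 groups of 38 by that sum, from 12.5 to 40.6 per 10000 in the most pigmented group to 0.391 to 1.35 in the least. Cdkn2a stood at 149 CPM (124 to 177) in the most pigmented group, then 316, 469 and 802, and at 870 CPM (816 to 925) in the least pigmented. Cdkn2b stood at 184, 311, 392, 564 and 552 CPM, so that the 2 least pigmented groups did not differ beyond counting error. Tagln stood at 54.4, 205, 722, 734 and 1218 CPM. Cdkn1a had a narrower range, at 800.4, 754, 980, 1218 and 1127 CPM.

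Identity genes that the rule did not use went the other way. The groups were cut by pigment genes, so genes that go with those, such as Tyr, follow the order by choice. Tyr stood at 316, 231, 58.3, 17.8 and 36.7 CPM from the most to the least pigmented group, against 18.6 CPM in macrophage-like cells. Mitf stood at 163, 132, 92.7, 73.8 and 49.8 CPM, Otx2 at 287, 279.8, 204, 135 and 116, and Krt18 at 1650.4, 1509.9, 1215, 931 and 626. In the least pigmented group, Otx2, Mitf and Krt18 were still above the macrophage-like levels of 35.5, 20.6 and 170 CPM. Rpe65, a gene of the RPE criterion, stood between 190.3 and 391 CPM in all 5, and at 250.04 CPM in macrophage-like cells.

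Over the 190 cells, thinned to 4000 UMIs each, Spearman's rho with the pigment sum was -0.55 for Cdkn2a, -0.32 for Cdkn2b, -0.37 for Tagln, -0.07 for Cdkn1a and -0.01 for Acta2, and 0.49 for Krt18, 0.42 for Tyr, 0.22 for Otx2 and 0.18 for Mitf. Unthinned, the values were -0.61, -0.51, -0.53, -0.14 and -0.05, and 0.55, 0.67, 0.47 and 0.43. The matrix sum of the rule gave -0.58. These are descriptions over cells of 1 library, whose scaled values share a total, and the pigment sum itself had a rho of -0.22 with the UMIs of the cell.

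**Figure D5:**
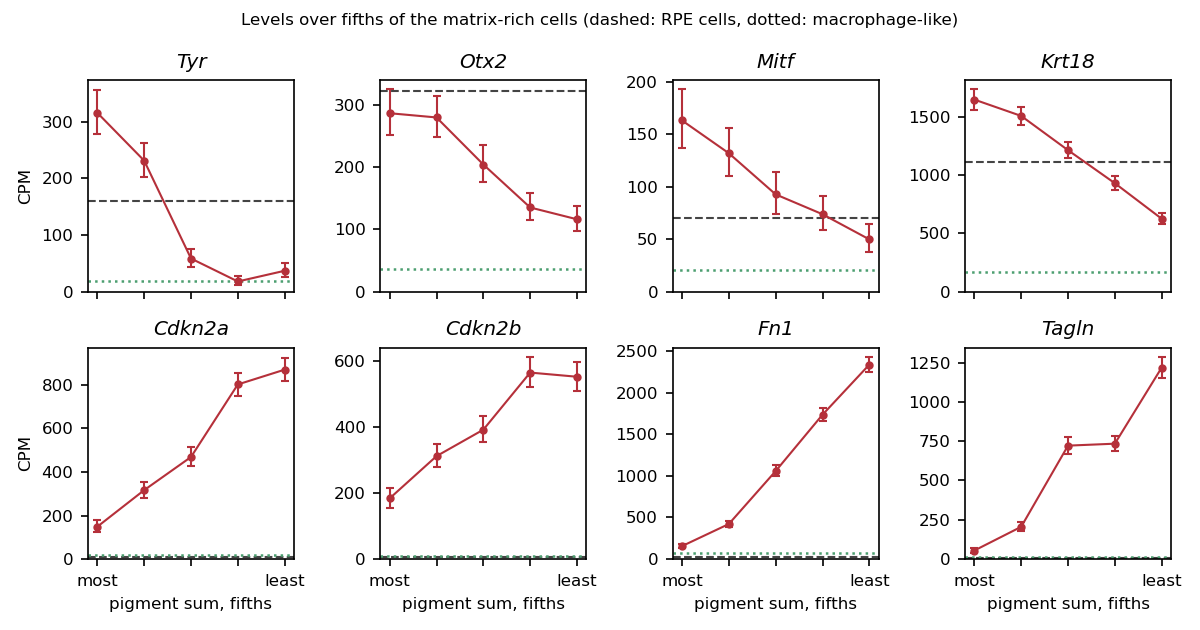
Levels (CPM, vertical axes from 0) of 8 genes in 5 groups of 38 matrix-rich cells, ordered from the most to the least pigment, with exact 95% Poisson bars. Dashed lines give RPE cells and dotted lines macrophage-like cells of the NaIO3 library. Tyr, Otx2, Mitf and Krt18 are highest toward the pigmented end and Cdkn2a, Cdkn2b, Fn1 and Tagln toward the other.

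Pigment-low and pigment-high cells were compared over 8243 genes, of which 4.16% (343) were past 2-fold higher in the pigment-low cells and 3.43% (283) past 2-fold lower. The highest were Cxcl10, G0s2, H19, Tubb3, Prkg2, St8sia2, Tagln, Loxl3, Mmp9 and Csrp2. Cxcl10, an interferon-induced chemokine, had 115 counts against 3, a ratio of 21.5 (8.34 to 123). G0s2, an inhibitor of lipolysis first found in the G0 to G1 switch, stood at 169 CPM against 15.01, a ratio of 11.1 (7.79 to 16.8). H19, an imprinted fetal long non-coding RNA, stood at 144 CPM against 13.5, a ratio of 10.5 (7.21 to 16.3), and Tubb3, a tubulin of neurons, at 94.2 against 8.01, a ratio of 11.4 (7.12 to 20.9). Loxl3, a lysyl oxidase, and Mmp9 had ratios of 6.93 (5.17 to 9.68) and 6.67 (4.88 to 9.53).

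The lowest in the pigment-low cells were Tyr, Bace2, Hkdc1, Lmo2, Vat1l, Col4a3, Chchd10, Fuom, A2m and Ntrk2. These cells were cut by a low pigment sum, so genes that go with the pigment genes stand low by choice. Tyr stood at 32.9 CPM against 256, a ratio of 0.129 (0.103 to 0.160), and Bace2, a protease that processes the melanosome protein PMEL, at 28.4 against 197, a ratio of 0.145 (0.113 to 0.182). Lmo2, a transcriptional cofactor, stood at 18.3 against 107 CPM, and in RPE cells at 3.98. Col4a3 stood at 19.9 against 96.6 CPM, and Col4a1 and Col4a2 were also lower, at 28.7 against 43.0 and 24.1 against 48.0. Serpina3n, an acute-phase serpin, was at 1183 CPM in pigment-low and 4011 CPM in pigment-high cells.

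The lists differed in direction between the pigment ranges. Over all genes, 4.16% were past 2-fold higher in pigment-low cells and 3.43% lower. In pigment-low cells 5 of 10 collagens were past 2-fold higher and 1 lower (median 1.26), 12 of 25 cytoskeletal genes were higher and none lower (median 0.89), and 3 of 7 EMT factors were higher and none lower (median 0.80). Of 15 basement membrane genes 1 was past 2-fold higher and 4 lower (median -0.17), and of 23 matrix glycoproteins 8 were higher and 3 lower (median 0.41). Of 23 p53 targets, 1 was past 2-fold higher and 1 lower (median 0.31), close to the shares over all genes. Their median between matrix-rich and RPE cells was 1.84. Melanin genes were past 2-fold lower for 4 of 7 and channels for 6 of 18. The ranges were cut by Mlana, Dct, Pmel and Tyrp1, so melanin genes that go with them stand low there by choice. Cdkn2a was at 742 CPM in pigment-low and 257 CPM in pigment-high cells, and seen in 79.4% and 50.6% of them after thinning. Against RPE cells, the pigment-high cells alone gave a log2 ratio of 4.70 for Cdkn2a.

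Fibroblast-type cells meet the same matrix limit and were the nearest set by the rule. There were 85 of them in the PBS library and 13 in the NaIO3 library, and the sums below are over both. The genes highest in matrix-rich cells were Cdkn2a, Cdkn2b, Ccl17, Scn7a, Mmp9, Cdkn1a, Nt5dc2, Serpina3n, Ass1 and Pdlim3. Cdkn2a had 2790 counts in matrix-rich and 3 in fibroblast-type cells, 551 against 5.85 CPM, a ratio of 80.6 (32.2 to 456), and Cdkn2b 2109 and 3, a ratio of 61.0 (24.3 to 345). Ccl17, a chemokine that attracts T cells, had 791 counts and 1 (ratio 53.4, 14.3 to 3164), and Mmp9 had 465 counts and none. Cdkn1a had a ratio of 15.2 (10.95 to 22.4), and Serpina3n 12.2 (10.0 to 15.2). These sums are mostly PBS cells, in which library and cell type cannot be told apart: all 3 counts of Cdkn2a and of Cdkn2b came from the 13 NaIO3 cells. Against those 13 cells alone, smaller ratios included 16.1 (6.42 to 91.1) for Cdkn2a, 12.2 (4.85 to 68.9) for Cdkn2b and 6.995 (4.31 to 13.3) for Cdkn1a. Nt5dc2 had 6.77 (4.49 to 11.4) and Serpina3n 3.53 (2.797 to 4.61). Ass1 had 19.05 (5.12 to 1129), against 19.09 over both libraries, and Ccl17 and Mmp9 had no count in the 13 cells. Macrophage markers summed to 10699.5 CPM in these 13 cells, against 1749 in RPE cells, so they are not fibroblast RNA alone. The comparison with the 13 cells was added after the data were seen.

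The genes lowest against fibroblast-type cells were Myoc, Chad, Tnmd, Apod, Mmp3, Angptl7, Mgp, Matn4, Pi16 and Sfrp2. Myoc, myocilin, had 9 counts against 1304, Tnmd, tenomodulin, 1 against 294, and Chad, chondroadherin, none against 235. Mgp, matrix Gla protein, stood at 14.8 CPM against 6181, a ratio of 0.00241 (0.00188 to 0.00301). Of the matrix genes, Fbln2 stood at 2179 CPM in matrix-rich cells and 87.8 in PBS fibroblast-type cells, while Col1a1 stood at 719 and 2962.

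In the other cells of the cluster, Timp1, Scn7a, Cdkn1a, Cdkn2a and Ttr lay between their levels in matrix-rich and RPE cells. The division genes above, and Tyr at 329.5 CPM, were higher there than in both. Timp1 was at 94.1 CPM there, against 405 in matrix-rich and 11.5 in RPE cells, Scn7a at 43.6 against 192 and 3.73, and Cdkn1a at 326 against 992 and 47.9. Cdkn2a, at 32.1 CPM, was nearer to the RPE level, and Ttr, at 37950.0 CPM, was nearer to RPE cells as well. Of these 109 cells, 35 met the RPE criterion themselves.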

How the data were processed

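The authors counted droplet reads into UMIs per gene and cell barcode, and the deposited values are raw UMI counts of 27998 gene rows. Per the submitters' processing notes, Cell Ranger 3.0.2 and mm10 were used; no annotation release, strand setting, cell-calling rule or treatment of ambiguous reads was found in those notes or the labels. Coordinates and transcripts came from GENCODE M21 (GRCm38), which held 27645 of the row identifiers.

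The members, gene lists and markers were chosen with earlier results of these data known. Cells were scaled to 10000 counts, and sums over a set of cells to CPM. Ratios used a pseudocount of 0.5 and at least 50 counts in both sums together, with exact conditional binomial intervals; levels have exact Poisson and shares Clopper-Pearson intervals, all 95% and for counting error only. A count of 0 allows up to 3 counts. The 19 genes of the rule are counted in none of the 31 lists of functions. Cells were clustered over both libraries (scanpy 1.11.5, 2000 variable genes, 30 components, 15 neighbours, Leiden resolution 1), and a cluster took a class name from at least 3 markers at 2-fold and a mean log2 fold of at least 2. No other class could have more markers among the cluster's 10 leading genes, and shallow clusters with no marker there stayed unnamed. A cluster with 221 NaIO3 cells was best matched by macrophage markers but stayed unnamed, so the macrophage-like cells come from 1 other cluster. Shares were repeated after thinning to 4000 UMIs. Doublets were ranked with Scrublet, marking 0.8% for each 1000 barcodes, and kept. Genes were named if they had at least 100 counts in either sum and ranked first by the interval bound nearest 1 (15 each way against RPE cells, 10 against fibroblast-type cells and between pigment ranges), leaving out genes of the rule, mitochondrial, ribosomal, haemoglobin, predicted and sex-linked genes, and genes below 0.1 of another class's level. In each list the members with the highest and lowest ratios were named too; Glb1, Axin2, Tgfbr2, the Smad genes, the inflammatory factors, division genes, junction genes and other genes named for their known role were chosen after their values were seen. Ratio code was tested on simulated counts. Software was Python 3.11.15, numpy 2.4.6, scipy 1.17.1, pandas 2.3.3, leidenalg 0.10.2, and R 4.3.3 with edgeR 4.0.16 for TMM scaling. Alternatives covered the limits of the rule, doublets, scaling, weighting, free RNA, count filters, pseudocount, depth and pigment range.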

Additional observations from a re-analysis of the deposited data

How the results depend on the processing

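Results were recomputed under 16 settings. Of the main results, 123 values stayed within a margin and 24 moved further. The margin was 1.5 times the reported value for counts, a 1.5-fold change of the ratio itself for list medians, and the counting interval for Cdkn2a. A list median near 0 can therefore change sign within the margin. Signs changed for 7 list medians, all under 1 in size: growth arrest became -0.03 under TMM scaling, cell division (-0.74) 0.076 with an RPE limit of 200, and RPE and eye-field factors (0.03) -0.31 under TMM scaling, -0.05 with a matrix limit of 40, -0.03 with cells weighted alike, -0.25 with at least 200 counts and -0.11 against deep RPE cells. The log2 ratio of Cdkn2a over RPE cells (5.79) was 6.08 with a matrix limit of 40, 5.55 with at least 5 pigment UMIs, 6.08 with a mitochondrial limit of 10%, 6.15 with an RPE limit of 200, 5.46 under TMM scaling, 5.44 with cells weighted alike, 4.70 in pigment-high cells and 6.15 against deep RPE cells. Subtracting free RNA, estimated as 15.6% of the matrix-rich and 19.5% of the RPE counts, left no Cdkn2a count in RPE cells. With 3 counts put in there, the log2 ratio was 12.21. The subtracted profile was summed over all kept cells, and the matrix-rich cells held 82.7% of the Cdkn2a UMIs of the library. The value of 12.21 rests on that estimate, whose error was not covered. Genes past 4-fold higher (948) numbered 1599 after that subtraction, 2520 without a count filter, 538 with at least 200 counts and 622 in pigment-high cells. Genes past 4-fold lower (519) numbered 882 after subtraction, 314 with a pseudocount of 5 and 322 against deep RPE cells. The collagen median (4.37) was 3.77 with at least 5 pigment UMIs, 5.91 after subtraction, 5.04 with at least 200 counts and 3.59 in pigment-high cells. The cytoskeletal median (2.77) was 4.76 after subtraction and 1.83 in pigment-high cells, and the visual-cycle median (-1.70) was -2.51 after subtraction. The cause of these shifts was not tested. The pigment-high and deep-RPE settings were added after seeing the data. Depth limits genes near the free RNA level, below which no decrease can be measured. No paired analysis was possible because each group is 1 library.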
